A study of Copadichromis virginalis x Mchenga conophoros with 6 samples.

Results

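Whole-brain RNA of male F1 hybrids labelled pit digging was compared with that of male F1 hybrids labelled isolated, gene by gene and allele by allele. The hybrids were crosses of Copadichromis virginalis, a Lake Malawi cichlid whose males dig pits, and Mchenga conophoros, whose males build sand castles. The pit digging group had been taken through a paradigm aimed at pit digging (2 libraries), and the isolated group through social isolation (2 libraries). All samples were labelled as F1 hybrids of the same species cross, and age and brood are not given in the labels. Another group, from a castle building paradigm, did not enter the comparison. Its 2 tables differed by no more than sampling would give (chi-square per degree of freedom 0.495, 25.6% identical counts) and may be a single library. These 4 of 6 libraries listed 8304 genes in common, of 12954 listed in any of the 4, and 1456 of the 8304 were missing from a castle building table. Of the 8304, 4795 had a symbol and 3509 an LOC identifier, and 8254 with a mean total of at least 20 counts were tested.

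An F1 hybrid holds a C. virginalis and an M. conophoros copy of each autosomal gene in the same nucleus. Both copies meet the same regulatory proteins, so a gene's allelic ratio reports on sequence differences linked to each copy, and a ratio that differs between behavioural states is known as context-dependent allele-specific expression. The sum of both alleles reports the gene's overall RNA level instead. In a brain, behavioural state can act on that level within hours through activity-induced transcription factors and over longer times through synaptic, hormonal and glial genes. The roles given for genes are those known from mammals. In RNA of a whole brain, fewer cells of a type and less RNA per cell cannot be told apart.

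The libraries held between 2155680 and 3294397 allele-assigned counts, and pit digging replicate 1 was the deepest. The C. virginalis share of all counts was 53.9% (exact 95% interval 53.87 to 53.98) and 53.1% (53.00 to 53.13) in the pit digging libraries, and 52.7% (52.65 to 52.78) and 52.7% (52.64 to 52.76) in the isolated libraries. The group means were 53.5 ± 0.610% for the pit digging group and 52.7 ± 0.0125% for the isolated group (± SD, 2 libraries each), a difference of 0.785 percentage points. Without pit digging replicate 1 it was 0.353 points, and without replicate 2 it was 1.22 points. The exact two-sided permutation p was 0.333, the smallest that 2 against 2 samples can give. Mitochondrially encoded transcripts made up 1.32% and 0.678% of the counts in pit digging and 1.09% and 1.05% in isolation.

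The libraries did not separate cleanly by group. Over 5086 genes with a mean total of at least 100, the median absolute difference in the sum was 0.325 on the log2 CPM scale between the pit digging libraries and 0.262 between the isolated libraries. CPM here is the sum of both alleles in counts scaled to a common library size, normalised by the trimmed mean of M values (TMM). Across groups the medians ran from 0.298, for pit digging replicate 1 against isolated replicate 2, to 0.460, for pit digging replicate 2 against isolated replicate 1. By this measure pit digging replicate 1 was closer to isolated replicate 2 than to the other library of its own group. By the Pearson correlation of log2 CPM the order was reversed, at 0.831 with isolated replicate 2 and 0.839 within pit digging. The isolated pair stood at 0.820. For the C. virginalis share the medians were 3.57 and 3.71 percentage points within the groups and 3.70 to 3.97 points between them. Counting error alone, taken as normal, would give medians of 2.97 to 3.37 points for such differences. Across genes, the difference between replicate 1 of pit digging and replicate 1 of isolation was correlated with that of the other, independent pair. This gave r = 0.188 for the sum (log2 differences) and r = 0.0390 for the share (differences in percentage points). With the isolated replicates exchanged, r was 0.282 and 0.0599. These are correlations over the 5086 genes of 2 pairs that share no library, and genes are not independent replicates.

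**Figure D1:**
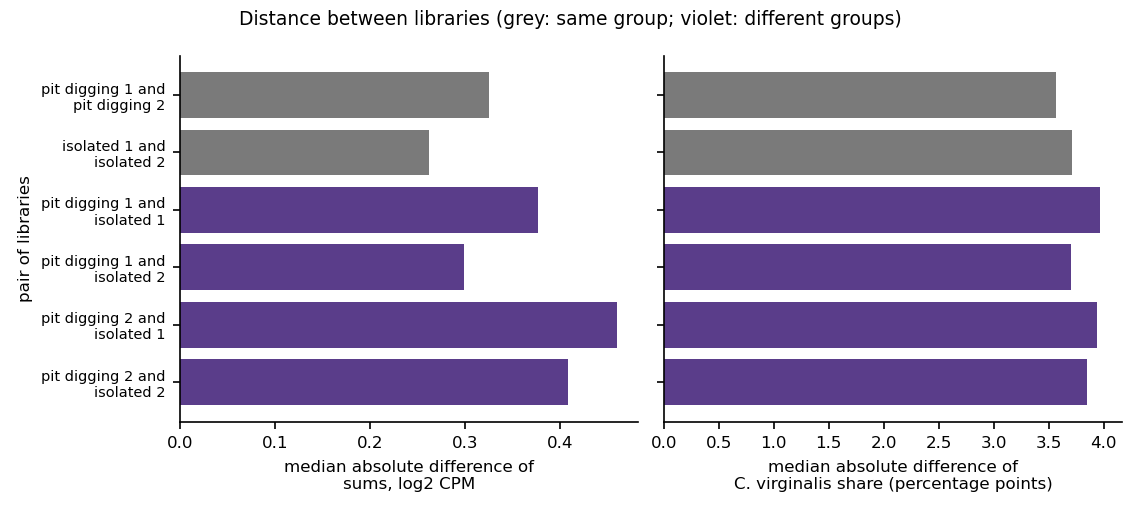
Horizontal bars give the median absolute difference between each pair of the 4 libraries over 5086 genes, for the sum of both alleles (left, log2 CPM) and for the C. virginalis share (right, percentage points). Grey bars are pairs within a group and violet bars pairs of different groups. For sums the pair of pit digging replicate 1 and isolated replicate 2 (0.298) lies below the pit digging pair (0.325), and for shares all 6 bars lie between 3.57 and 3.97 points.

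For the sums, edgeR's quasi-likelihood test called 0 of 8254 genes at a Benjamini-Hochberg adjusted p under 0.05 (0%), and the smallest adjusted p was 0.106. At an unadjusted p under 0.05 it took 827 genes (10%), of which 500 were higher (6.06%) and 327 lower (3.96%) in pit digging. DESeq2 called 158 genes (1.91%), 98 higher (1.19%) and 60 lower (0.727%) in pit digging. With a library left out, DESeq2 called 54 and 42 genes without pit digging replicates 1 and 2, 59 without isolated replicate 1 and 119 without isolated replicate 2. The groups did not overlap in 1752 genes that were higher (21.2%) and 1832 that were lower (22.2%) in pit digging, or 43.4% in either direction. Among libraries that do not differ by group, 2 against 2 would show no overlap with a probability of about 0.333. The distribution was centred near 0, with a median log2 difference of -0.0037 and 5th and 95th percentiles of -0.97 and 1.11. A 2-fold or larger difference of means without overlap was seen in 477 genes higher (5.78%) and 323 lower (3.91%) in pit digging. At 4-fold these were 67 (0.812%) and 48 (0.582%) genes, and at 8-fold 13 (0.157%) and 6 (0.0727%). The labels do not say whether replicates came from separate tanks or broods, so a p-value speaks only of how far these libraries spread, which may be technical.

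Because edgeR called none, the 12 genes of each direction with the smallest p are given as values. They were chosen among genes whose groups did not overlap, so the gaps between the groups follow from the choice and nothing is read from them. Choosing by the sum also largely fixes the agreement of the alleles. All 24 were called by DESeq2, and in all 24 both alleles differed in the same direction, each by at least 2-fold. The roles of these genes were mixed in both directions.

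Among these 24 genes the largest fold was that of sez6l2, a brain-enriched membrane protein of the Sez6 family. It stood at 412 and 453 CPM in pit digging, against 11.2 and 15.9 CPM in isolation. The means differed 31.9-fold, or 4.99 ± 0.30 (log2 ± SE; edgeR adjusted p = 0.106). Its C. virginalis share was 50.7% and 46.9% in pit digging and 52.2% and 60% in isolation, so both alleles stood far apart between the groups. The isolated shares and the fold of sez6l2 rest on only 23 and 35 counts in isolation. Shank1, a scaffold of the postsynaptic density, had 326 and 394 CPM in pit digging and 105 and 105 CPM in isolation, with a log2 difference of 1.77 ± 0.22 (edgeR adjusted p = 0.180). The pit digging libraries were above both isolated libraries, and the shares of shank1 overlapped between the groups.

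Genes of protein modification and folding were among the rest. Hace1, a ubiquitin ligase that acts on Rac1, had 175 and 186 CPM in pit digging against 17.0 and 17.3 CPM in isolation, a log2 difference of 3.39 ± 0.24 (edgeR adjusted p = 0.106). It was missing from a castle building table, so the genes listed in all libraries do not hold it. Ube2m, the conjugating enzyme for NEDD8, had 85.2 and 67.6 CPM in pit digging against 10.2 and 13.2 CPM in isolation. The isolated sums were only 35 and 38 counts for hace1 and 21 and 29 counts for ube2m. St13, an Hsp70 co-chaperone, had 272 and 242 CPM in pit digging against 55.4 and 61.8 CPM in isolation. In each of these genes the gap between the groups was wide beside that between replicates, which choosing by the smallest p favours. Prkcsh, the regulatory subunit of glucosidase II, had 194 and 160 CPM in pit digging against 34.5 and 31.4 CPM in isolation, and it too was missing from a castle building table.

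Gabarap, a relative of yeast ATG8 that acts in autophagy and in the traffic of GABA-A receptors, stood at 301 and 273 CPM in pit digging and 30.1 and 34.1 CPM in isolation (log2 3.16 ± 0.24; edgeR adjusted p = 0.106). The splicing factor srsf5 stood at 561 and 328 CPM in pit digging and 46.2 and 44.1 CPM in isolation (log2 3.30 ± 0.35; edgeR adjusted p = 0.153). In both genes the C. virginalis allele differed more than the other. For gabarap the C. virginalis allele differed by 4.31 and the M. conophoros allele by 2.45 on the log2 scale. For srsf5 these values were 4.31 and 1.69. The isolated sums of gabarap were only 62 and 75 counts. The others, the helicase ddx31, the phosphatase cdc14b, the microtubule polymerase ckap5 and the Krebs cycle subunit idh3b, were between 3.28-fold (idh3b) and 9.59-fold (cdc14b) higher. Cdc14b held only 18 and 13 counts in isolation.

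Among the genes lower in pit digging, 3 belong to mitochondria. Ndufab1, the acyl carrier subunit of respiratory complex I, had 13.9 and 9.51 CPM in pit digging against 154 and 138 CPM in isolation, a 12.5-fold difference and a log2 value of -3.62 ± 0.32 (edgeR adjusted p = 0.153). In pit digging its sums were only 43 and 19 counts. Ndufa6, another accessory subunit of complex I, had 11.98 and 15.0 CPM in pit digging against 104 and 94.1 CPM in isolation. The pit digging sums of ndufa6 were only 37 and 30 counts. Tomm6, a small subunit of the outer membrane import channel, had 23.3 and 21.5 CPM in pit digging against 163 and 149 CPM in isolation. By the choice of genes, the groups did not overlap in any of the 3. Over the 24 tested genes of nuclear-encoded mitochondrial respiration, the median log2 difference was -0.01. That list holds ndufa6 but neither ndufab1 nor tomm6.

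Rasgrf2, a calcium-responsive Ras exchange factor, had 15.5 and 32.5 CPM in pit digging against 317 and 258 CPM in isolation (log2 -3.59 ± 0.45; edgeR adjusted p = 0.180). Its alleles differed by nearly the same amount, -3.66 for the C. virginalis and -3.51 for the M. conophoros copy on the log2 scale. Synpr, the vesicle membrane protein synaptoporin, had 14.2 and 16.5 CPM in pit digging against 62.2 and 77.2 CPM in isolation. Atp6v0a1, a subunit of the vesicular proton pump, had 13.3 and 10.5 CPM in pit digging against 79.7 and 55.9 CPM in isolation. The pit digging sums were only 44 and 33 counts for synpr and 41 and 21 counts for atp6v0a1. Timp4 (a metalloprotease inhibitor), lasp1 (an actin-binding protein), arl6ip1 (which shapes the endoplasmic reticulum), aacs (acetoacetyl-CoA synthetase) and nkiras2 were 2.91-fold (nkiras2) to 6.91-fold (arl6ip1) lower. All 5 had the pit digging libraries below both isolated libraries, as the choice of genes required.

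**Figure D2:**
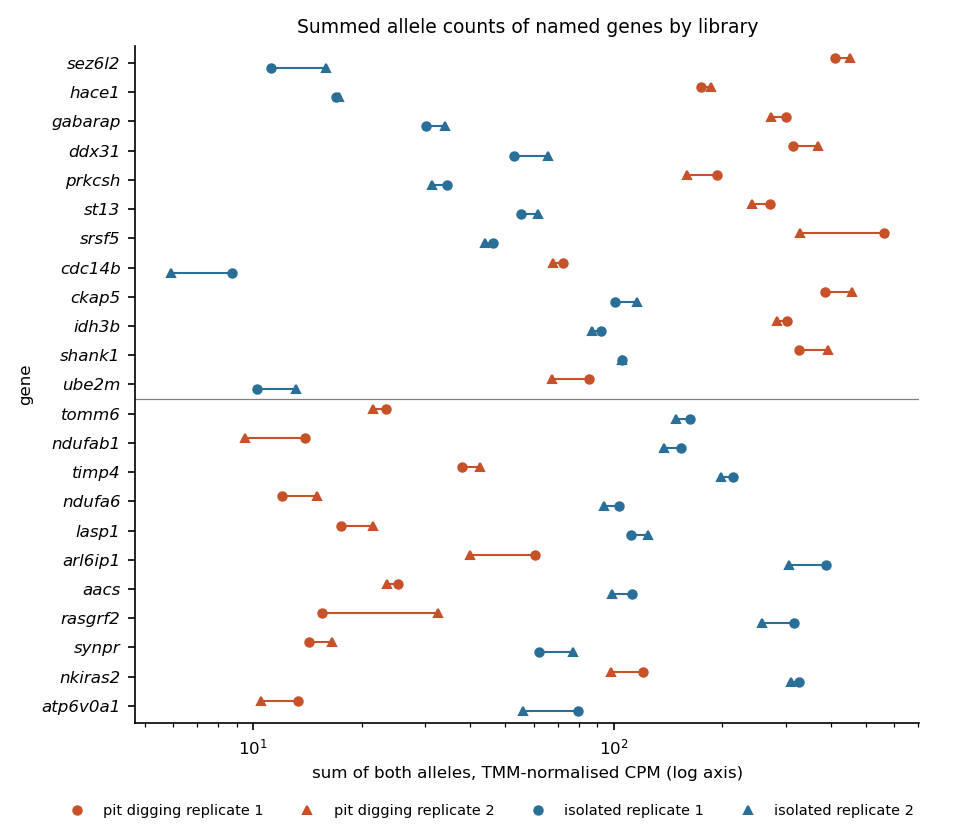
Points give the sum of both alleles in each library (TMM-normalised CPM, log axis) for the 12 genes higher in pit digging (above the grey line) and 11 lower in pit digging (below it), with a line joining the 2 libraries of a group. Pit digging is in red and isolation in blue, and the groups do not overlap in any of the 23 genes drawn, as their choice required. Of the genes drawn, sez6l2 has the widest gap, at 412 and 453 CPM in pit digging and 11.2 and 15.9 CPM in isolation.

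In genes with a large difference of the sum, the alleles were compared with each other. Of the 115 genes with a 4-fold or larger difference and no overlap, all 115 had both alleles in the same direction, and in 114 each allele differed by at least 2-fold. Over all 8254 tested genes these counts were 6746 and 679. A symbol was given for 57, and 96 were called by DESeq2. The genes were chosen by the sum of both alleles, which largely fixes that agreement, so nothing is read from it. Of the 115, 60 (52.2%) also had shares that did not overlap between the groups, beside 34.1% of all tested genes. Their median absolute share difference was 6.76 points, against 3.43 points over all tested genes. Choosing by a 4-fold difference favours few counts in the lower group, as in sez6l2 with 23 and 35 counts in isolation. Counting error of the share is larger there, and its part in these 2 contrasts was not tested.

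**Figure D3:**
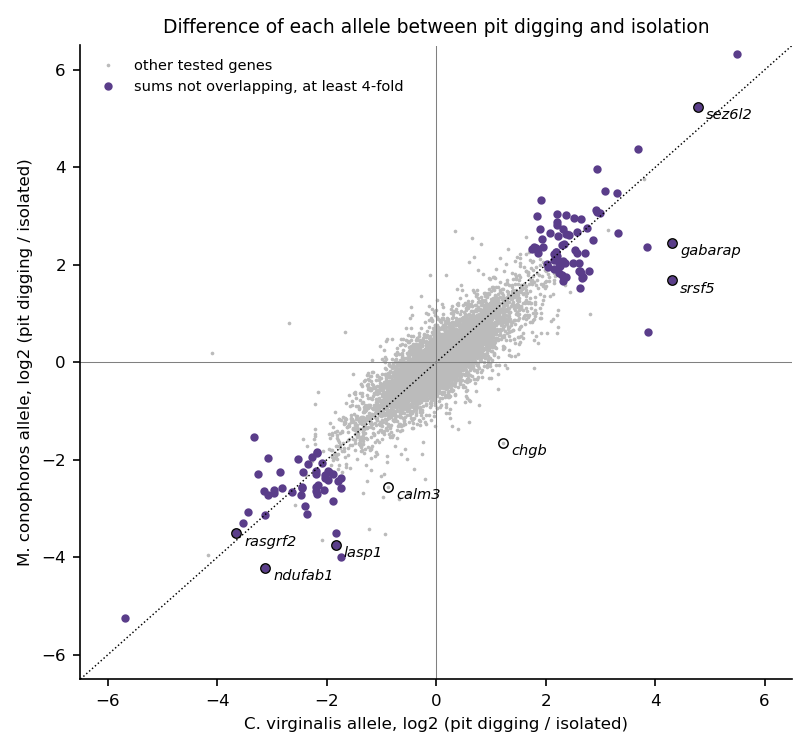
Each point is a tested gene, with the log2 difference between pit digging and isolation of the C. virginalis allele on the horizontal axis and of the M. conophoros allele on the vertical axis. Violet points are the 115 genes whose sums did not overlap and differed at least 4-fold, and the dotted line marks equal differences. These genes lie along that line in the upper right and lower left, whereas chgb lies in the lower right, with its alleles 1.22 and -1.65 apart in opposite directions.

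For the C. virginalis share, edgeR's quasi-likelihood test on the allelic ratio called 0 genes at an adjusted p under 0.05 (0%), with a smallest adjusted p of 0.146. At an unadjusted p under 0.05 it took 448 genes (5.43%), 300 in which it was higher (3.63%) and 148 in which it was lower (1.79%) in pit digging. DESeq2 called 3 genes (0.0363%), all of them higher in pit digging, of which chgb was the only one with a symbol. Leaving out a library gave edgeR 2 genes without pit digging replicate 2 and 1 gene without isolated replicate 1. DESeq2 gave 5 and 3 genes without these libraries and 0 without either of the others. The shares did not overlap in 1537 genes that were higher (18.6%) and 1277 that were lower (15.5%) in pit digging. In either direction this was 34.1%, near the probability of about 0.333 for libraries that do not differ by group. A difference of at least 10 points without overlap was seen in 393 genes higher (4.76%) and 288 lower (3.49%) in pit digging, and one of at least 20 points in 46 (0.557%) and 22 (0.267%). The median difference was 0.245 points, in the direction of the whole-library share.

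Chgb and calm3 were among the 12 genes taken for a share that was higher in pit digging. These 12, and the 12 taken for a lower share, were chosen among genes whose shares did not overlap. Their separation between the groups thus follows from the choice. Chgb, the granule protein chromogranin B, had shares of 93.2% and 86.6% in pit digging against 66.7% and 52.0% in isolation, a log2 difference of the allelic ratio of 2.71 ± 0.39 (edgeR adjusted p = 0.178; DESeq2 adjusted p = 0.00052). Its sum overlapped between the groups, at 1419 and 667 CPM in pit digging and 609 and 789 CPM in isolation. Calm3, a calmodulin gene, had shares of 84.7% and 82.0% in pit digging against 65.8% and 57.3% in isolation (log2 1.66 ± 0.21; edgeR adjusted p = 0.178). Calmodulin genes code for near-identical proteins and can share reads, so the count of calm3 is uncertain. Its sum was lower in pit digging, at 235 and 203 CPM against 494 and 603 CPM in isolation, and the M. conophoros allele differed by -2.56 and the C. virginalis allele by -0.88 on the log2 scale.

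Other genes combined a share and a sum difference in different ways. Cdh13, an adhesion protein anchored in the membrane by a lipid, had shares of 71.6% and 76.0% in pit digging against 50.9% and 51.2% in isolation. Its sum was 488 and 1075 CPM in pit digging against 25.8 and 131 CPM in isolation, and isolated replicate 1 held 53 counts. Lasp1 went the other way in its sum and had shares of 77.8% and 72.1% in pit digging against 45.7% and 42.7% in isolation. Gabarap had shares of 57.0% and 50.1% in pit digging against 30.6% and 18.7% in isolation, the latter from only 62 and 75 counts. In lasp1 the C. virginalis allele was thus the more abundant in both pit digging libraries and the less abundant in both isolated libraries. Its pit digging shares rest on 54 and 43 counts over both alleles. Srsf5 had shares of 87.7% and 67.9% in pit digging against 37.9% and 42.3% in isolation; its pit digging libraries were themselves far apart. Khdrbs1, an RNA-binding protein, jade2, a chromatin factor, and cntn1, a neuronal adhesion protein, had differences of 13.6, 13.3 and 16.1 points. The other named genes with a higher share, mgrn1, gtf2e2, cers1, ppp2cb and dynlrb2, had differences of 19.5 to 27.2 points.

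The 12 genes taken for a share that was lower in pit digging had weaker statistics, with edgeR adjusted p-values between 0.285 and 0.651 and no call by DESeq2. Tubb, a beta-tubulin from a family whose copies can share reads, had shares of 47.7% and 50.02% in pit digging against 74.2% and 63.4% in isolation. Neurod1, a neuronal transcription factor, had shares of 47.1% and 50.3% in pit digging against 60.4% and 68.6% in isolation. Its sum was far from even within pit digging, at 672 and 92.6 CPM, against 212 and 193 CPM in isolation. Grin2b, a subunit of the NMDA receptor, had shares of 50.2% and 51.4% in pit digging against 62.2% and 60.3% in isolation, with overlapping sums. Ank3, which anchors proteins at the axon initial segment, had shares of 50.3% and 51.1% in pit digging against 60.8% and 59.1% in isolation. In these 4 genes the pit digging libraries were near equal shares and the isolated libraries were above them. The others (slc45a1, rab5c, bud13, supt5h, nedd4l, tcf12, hnrnpk and fam21c) differed by -9.34 points (hnrnpk) to -25.4 points (nedd4l).

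**Figure D4:**
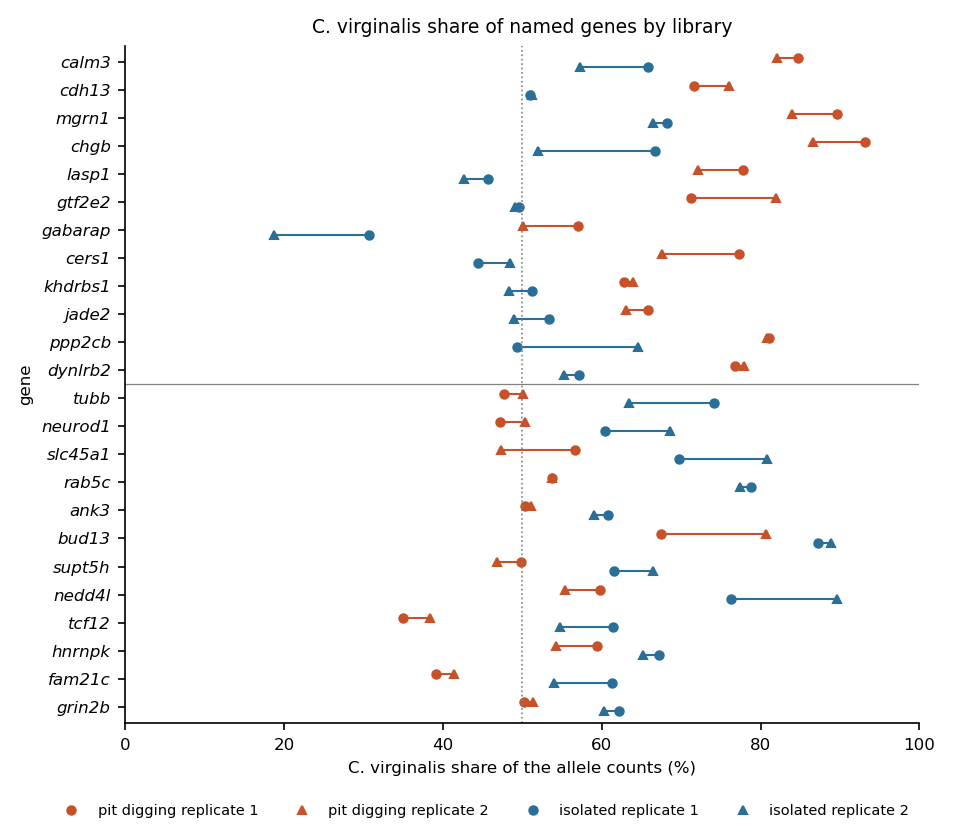
Points give the C. virginalis share of the allele counts (%) in each library for the 12 genes with a higher share in pit digging (above the grey line) and the 12 with a lower share (below it), with a line joining the 2 libraries of a group. Pit digging is in red, isolation in blue and the dotted line marks equal alleles. By the choice of genes, the groups do not overlap in any of the 24. In chgb the shares are 93.2% and 86.6% in pit digging and 66.7% and 52.0% in isolation.

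Gene lists for brain functions were read against the background in which 43.4% of all tested genes had sums and 34.1% had shares that did not overlap. No member of any list was called by edgeR. Among 10 tested genes of the immediate early list, 0 had a higher and 1 (id1) a lower sum without overlap, and the median log2 difference was -0.08. Neurons switch on immediate early genes with activity. The list also held creb1, crebl2, id1 and id2, so its count and median do not describe activity-induced genes alone. Npas4, a neuron-specific activity factor, had 49.2 and 128 CPM in pit digging against 51.0 and 6.82 CPM in isolation, and egr1 had 255 and 497 CPM in pit digging against 545 and 146 CPM in isolation. The groups overlapped in both, and within each group the libraries differed widely. Several well-known members, fos and arc among them, were listed in none of the 4 tables.

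Of 20 GABA genes, 3 had higher and 8 had lower sums in pit digging without overlap, with a median log2 difference of -0.13. Their summed level was 6111 and 6207 CPM in pit digging and 7387 and 7501 CPM in isolation. Slc6a11, the glial transporter GAT3, had 803 and 734 CPM in pit digging against 1184 and 1101 CPM in isolation (log2 -0.57 ± 0.18; edgeR adjusted p = 0.429). Each pit digging library was below each isolated library in this gene. DESeq2 called 2 of the 20, gabarap among them.

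Of 22 glutamate genes, 3 had higher and 4 had lower sums without overlap, with a median of 0.07. Gria2, the AMPA receptor subunit that limits calcium entry, had 881 and 1002 CPM in pit digging against 438 and 384 CPM in isolation (log2 1.19 ± 0.20; edgeR adjusted p = 0.224). Cacng3, an AMPA receptor auxiliary subunit, had 61.2 and 98.6 CPM in pit digging against 37.9 and 40.4 CPM in isolation, whereas cnih2, another auxiliary protein, had 114 and 120 CPM in pit digging against 224 and 194 CPM in isolation. Members of the receptor complex thus stood on both sides. Slc1a2, the glial glutamate transporter, had overlapping sums and C. virginalis shares of 67.5% and 67.3% in pit digging against 53.9% and 60.2% in isolation (edgeR adjusted p = 0.391).

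At the synapse, 10 of 47 vesicle and SNARE genes had higher and 16 had lower sums without overlap, with a median of -0.03. Stx1a, a SNARE protein of the presynaptic membrane, had 58.3 and 65.6 CPM in pit digging against 13.6 and 11.4 CPM in isolation (log2 2.31 ± 0.32; edgeR adjusted p = 0.194). Both pit digging libraries were above both isolated libraries, and reads of related genes could be split by the counting. The isolated sums of stx1a were only 28 and 25 counts. Of 77 postsynaptic and adhesion genes, 19 had higher and 11 had lower sums, with a median of 0.11. Lrrc4b, a synaptic adhesion protein, had 121 and 142 CPM in pit digging against 21.4 and 10.9 CPM in isolation (log2 3.02 ± 0.41; edgeR adjusted p = 0.191). Its isolated sums were only 44 and 24 counts. Cntnap1, which is needed at the junctions beside nodes of Ranvier, had 124 and 154 CPM in pit digging against 273 and 280 CPM in isolation.

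Calcium signalling and channel lists held near-equal numbers of higher and lower sums. Of 24 calmodulin, calcineurin and CaM kinase genes, 7 had higher and 7 had lower sums without overlap, and 6 had higher and 2 had lower shares. Ppp3r1, the regulatory subunit of calcineurin, had 579 and 559 CPM in pit digging against 983 and 912 CPM in isolation. Camk2n2, an inhibitor of CaM kinase II, had nearly equal sums, with a log2 difference of -0.01, and shares of 70.4% and 61.9% in pit digging against 53.4% and 54.9% in isolation. The examples given from the calcium signalling and channel lists were among those with the smallest p. None was called by edgeR, so no difference is read from them. Of 34 channel genes, 10 had higher and 9 had lower sums. Scn3b, a sodium channel auxiliary subunit, had 36.9 and 28.0 CPM in pit digging against 104 and 82.7 CPM in isolation, and cacnb3, a calcium channel auxiliary subunit, had 97.5 and 69.1 CPM in pit digging against 37.9 and 45.4 CPM in isolation.

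Among 17 genes of neuropeptides, granins and their processing, 0 had higher and 7 had lower sums without overlap, with a median of -0.05. Pcsk1, a convertase that cuts prohormones, had 88.7 and 110 CPM in pit digging against 260 and 292 CPM in isolation (log2 -1.48 ± 0.23; edgeR adjusted p = 0.208). DESeq2 called it, with an adjusted p of 0.018, whereas edgeR did not. Of 17 steroid, stress and thyroid hormone genes, 2 had higher and 2 had lower sums, and sgk1, a kinase induced by corticosteroids, had 217 and 174 CPM in pit digging against 47.2 and 90.4 CPM in isolation (log2 1.51 ± 0.39; edgeR adjusted p = 0.334). Of 11 monoamine and acetylcholine genes, 3 had higher and 5 had lower sums, and adrb1, the beta-1 adrenergic receptor, had 148 and 133 CPM in pit digging against 28.2 and 70.4 CPM in isolation. In sgk1 and adrb1 the groups did not overlap, but the isolated replicates were themselves far apart. Of 10 clock genes, 1 had a higher and 4 had lower sums, and hlf, a clock output transcription factor, had 49.5 and 45.5 CPM in pit digging against 167 and 98.2 CPM in isolation.

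Housekeeping lists had medians near 0. Of 31 heat shock and folding genes, 4 had higher and 9 had lower sums, and dnajb11, a chaperone of the endoplasmic reticulum, had 13.6 and 13.0 CPM in pit digging against 43.3 and 43.6 CPM in isolation. Of 45 ribosomal and translation genes, 11 had higher and 7 had lower sums, with a median of 0.04. Eif4b, an initiation factor, had 195 and 190 CPM in pit digging against 62.2 and 34.1 CPM in isolation (log2 1.999 ± 0.36; edgeR adjusted p = 0.233). Of the 24 respiration genes 5 had higher and 7 had lower sums, and fh, fumarate hydratase, had 12 and 12 counts in pit digging against 82 and 69 counts in isolation. The pit digging counts of fh were at the listing floor, as 12 was the smallest total of any gene listed there. Only 3 mitochondrially encoded transcripts were tested, and none had sums without overlap. COX1 was almost wholly on the M. conophoros allele, with C. virginalis shares of 0.208% and 0.221% in pit digging and 0.182% and 0.206% in isolation.

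Markers of brain cell types were checked in the same way. Neuronal markers were present, with 14 of 26 tested and a summed level of 6613 and 8841 CPM in pit digging and 8204 and 6993 CPM in isolation, which overlapped. Of 10 tested oligodendrocyte genes, 4 had higher and 1 had a lower sum, and their summed level was 7147 and 7146 CPM in pit digging and 5910 and 5935 CPM in isolation. Olig2, a transcription factor of the oligodendrocyte lineage, had 74.5 and 55.6 CPM in pit digging against 24.8 and 16.4 CPM in isolation (log2 1.66 ± 0.37; edgeR adjusted p = 0.293). Ugt8 went the other way, at 119 and 97.1 CPM in pit digging against 145 and 143 CPM in isolation. In mbp and bcas1 the groups overlapped. Each of these genes held a small part of the summed level. Of 12 radial glia and astroglia genes, 2 had higher and 5 had lower sums, with a median of -0.44. Their summed level was 6240 and 5742 CPM in pit digging and 8804 and 5806 CPM in isolation, which overlapped. The oligodendrocyte sum and the GABA sum each separated the groups, in opposite directions, but so did the sums of several other lists. Channel genes had 4746 and 8317 CPM in pit digging against 4406 and 4426 CPM in isolation. Monoamine and acetylcholine genes had 1377 and 1465 CPM in pit digging against 1569 and 1559 CPM in isolation. Without a group difference, 2 against 2 libraries separate with a probability of about 0.333. The part of cell composition in the results above was not tested. Of 9 genes of division and neurogenesis, 1 had a higher and 4 had lower sums, and the summed level was 1155 and 481 CPM in pit digging and 727 and 684 CPM in isolation.

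Markers of tissues beside the brain were mostly absent. Of 20 pituitary genes 2 were tested, with a summed level of 110 and 137 CPM in pit digging and 305 and 333 CPM in isolation, most of it pcsk1, which the neuropeptide list also holds. The pituitary hormone genes gh, prl and tshb were listed in no table. Of 37 vascular and meningeal genes 10 were tested, 3 with higher and 3 with lower sums, and their summed level was 434 and 384 CPM in pit digging and 316 and 304 CPM in isolation. The endothelial markers cdh5 and pecam1 were listed in no table. Of 31 microglial and leukocyte genes 3 were tested, at 201 and 267 CPM in pit digging and 181 and 205 CPM in isolation. Of 19 erythrocyte genes 2 were tested, at 319 and 722 CPM in pit digging and 404 and 223 CPM in isolation. Most of this level was epb41 in each library. No retina or pineal gene was tested. The part of vascular RNA, whose summed level was higher in both pit digging libraries, was not tested.

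**Figure D5:**
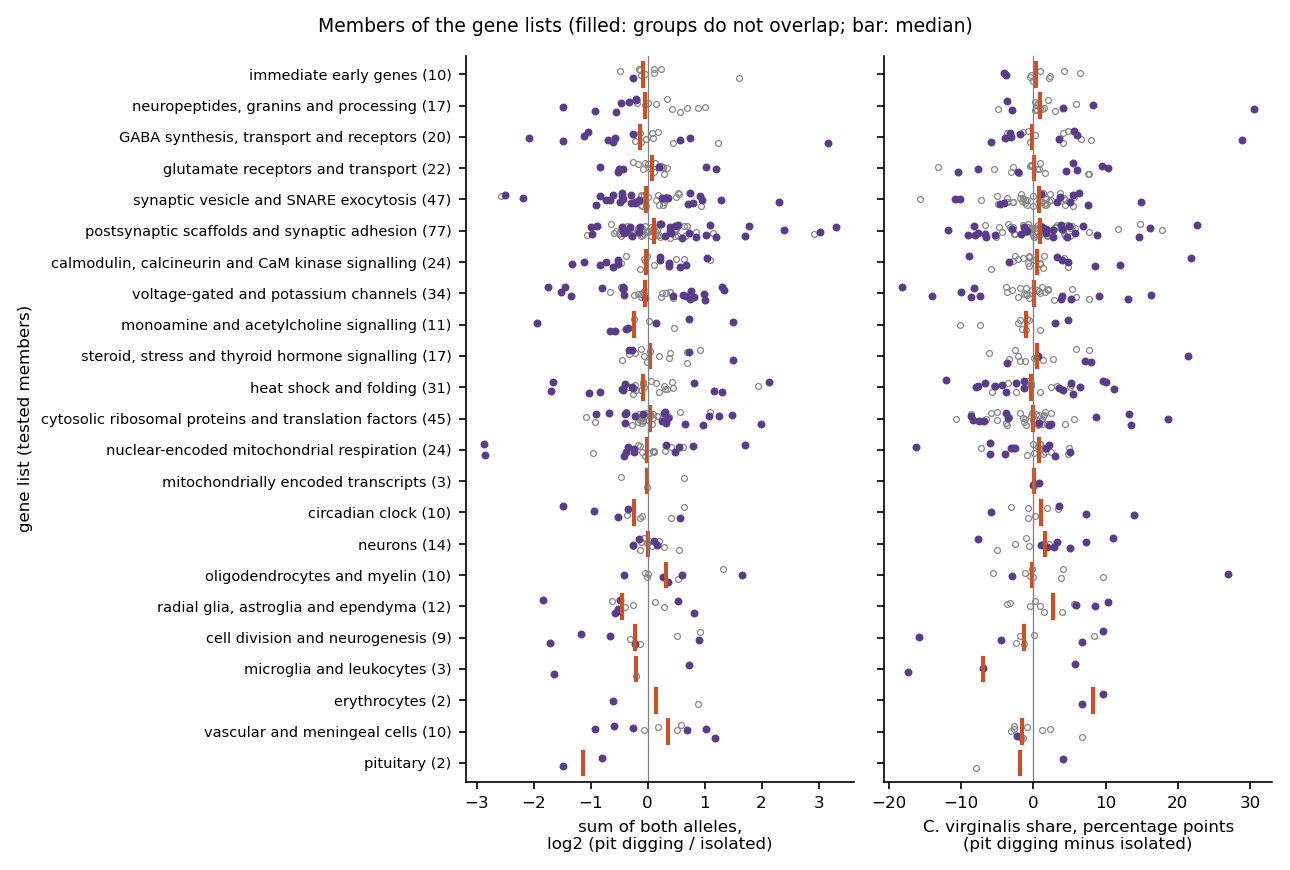
Each point is a tested member of a gene list, with the log2 difference in the sum of both alleles (left) and the difference in C. virginalis share in percentage points (right), pit digging over or minus isolated. Filled points are genes whose groups do not overlap, orange-red bars are list medians and the number of tested members is in parentheses. Medians of lists with 10 or more members lie between -0.44 (radial glia) and 0.35 (vascular cells) for the sums, while single members reach beyond 3.

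The 1456 genes missing from a castle building table add mainly low counts. The 1428 of them that were tested had a median total of 64 counts, against 164.5 in the 6826 genes listed in all 6 tables. Their sums did not overlap in 43.7% and their shares in 33.5% of cases, against 43.4% and 34.2% in the other genes. They held 22 of the 115 genes with a 4-fold or larger difference, among them hace1, prkcsh and ndufab1.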

How the data were processed

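Trizol was used to extract the whole-brain RNA and Illumina protocols to make the libraries, per the labels. Per the file headers, each deposited table holds whole-number counts of reads on the C. virginalis and M. conophoros alleles of a gene, not normalized, beside their log2 ratio. The submitters' processing notes name STAR 2.4. Build, annotation, allele counter and strand setting were not given in the sources used. No gene in a table has under 6 counts on an allele, so an unlisted gene is not a count of 0. A sum of both alleles covers only reads over informative sites. The whole-series table held the same counts as the library tables. No genome was used.

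The allelic fit (edgeR 4.0.16 with R 4.3.3, glmQLFit and glmQLFTest) gave each library its own intercept and each group its own allele coefficient, with 1 library size for both alleles. Sums were fitted with group as the factor and TMM normalization. Both fits had 2 residual degrees of freedom, with biological coefficients of variation of 10.8% (allelic) and 34.6% (sums). Benjamini-Hochberg adjustment ran over 8254 genes (threshold 0.05). An SE is the log2 value divided by the square root of F. Intervals of library shares are exact (Clopper-Pearson, 95%) and hold counting error alone. Both fits were run on simulated counts to check the size of known log2 differences. How many such genes each method calls is not reported here.

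The members and gene lists were chosen with earlier results of these data known. Named genes had a symbol, a mean total of at least 50 and groups that did not overlap. As none passed the threshold, the 12 per direction and measure with the smallest p were taken. Lists contribute up to 3 examples per measure, again by p, and a few values beside them serve comparison. A few of these genes are not reported here. Alternatives were DESeq2 1.42.0, other filters, missing genes as 0, other gene sets, scalings and alleles, castle building in the fit (as 1 sample), a replicate block and each library left out.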

Additional observations from a re-analysis of the deposited data

Results flagged for a closer look

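Genes listed in both tables of a group and in neither table of the other did not enter the main comparison, because an unlisted gene had fewer than 6 counts on at least 1 allele and its count on the other is not given. There were 363 such genes in pit digging and 200 in isolation, most with low counts, and 15 and 11 of them had at least 200 counts in both libraries. Pairs of 1 library from each group also had genes listed in them alone. For pit digging replicate 1 these were 418 genes with isolated replicate 2 and 247 with isolated replicate 1. For pit digging replicate 2 they were 123 with isolated replicate 1 and 78 with isolated replicate 2. Numbers of this size thus arose across the groups as well. The 15 listed in 1 group alone with a symbol and at least 200 counts in both libraries were singled out as genes outside the comparison. Listed in pit digging alone were ndufa4, a respiratory chain subunit, with a mean total of 2382 counts, the ribosomal protein genes rps10 (2129) and rpl9 (2025.5), rtbdn (1010), phf20 (543.5), map2k2 (499.5), sub1 (475.5), ddx42 (327.5), mfsd1 (318.5) and neo1 (210.5). Listed in isolation alone were fbl (301.5), prmt1 (289.5), cdc37 (267.5), psma5 (227) and smdt1 (218).

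The shares of ndufa4 were 49.3% and 49.8% in the pit digging libraries and those of rps10 were 42.8% and 43.2%, so both alleles were well covered there. Sub1 was different, at 97.5% and 97.7%, so its M. conophoros allele was near the listing minimum. Of the 15 genes, 12 were listed in castle building, whose 2 tables differed by no more than sampling would give, and rps10, rtbdn and sub1 were not. With missing genes taken as 0 on both alleles, edgeR tested 10121 genes and called 0 for the sums (958 at an unadjusted p under 0.05) and 0 for the allelic ratio (517).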

How the results depend on the processing

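Under every alternative run with edgeR, the sums gave 0 called genes, and so did the allelic ratio except under a replicate block and with a library left out. DESeq2 called 158 genes for the sums and 3 for the allelic ratio. With a library left out, edgeR called 0 to 2 genes for the allelic ratio (gpm6a and srsf5 without pit digging replicate 2, itm2a without isolated replicate 1, named after their values were seen). DESeq2 with a library left out, a combination chosen after seeing the data, called 0 to 5 genes for the allelic ratio and 42 to 119 for the sums. The fit with the replicate number as a block called 5 genes for the allelic ratio, calm3 and chgb among them, and 0 for the sums. Samples with the same number did not deviate together (correlation -0.0944 for sums and -0.0195 for the allelic ratio). This is 1 correlation over genes from 2 libraries a group, so it cannot exclude that same-numbered samples shared a tank or brood. The cause of the changes in called genes was not tested. The difference in the library share stayed between 0.353 and 1.22 points.

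Of 1419 alternative values for 52 allelic and 57 summed gene values, 1383 kept their direction and side of the threshold, 33 passed it (31 under DESeq2 and 2 under the block) and 3 reversed. With a library left out, the allelic log2 difference ran from -0.147 to 0.910 for egr1 and from -0.0341 to 0.874 for egfl7, and the log2 difference of the ND6 sum from -0.0793 to 1.13. Egr1 reversed without isolated replicate 2, the others without pit digging replicate 1. With 2 libraries a group, a fit without a library assumes that the lone library varies like the other group. Depth limits the shares: counting error alone would give a median difference between 2 libraries of 2.97 to 3.37 points, where 3.57 to 3.97 points were seen.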
